A study of Mus musculus with 8 samples.

Results

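Horizontal basal cells are the flat reserve stem cells that sit on the basement membrane of the olfactory epithelium. The mRNAs of a set of 6 of their marker genes were measured here in whole mucosa of 4 knockout and 4 control mice. The set was fixed by name: the keratins Krt5, Krt14, Krt15 and Krt17, the transcription factor gene Trp63 and the adhesion receptor gene Icam1. Each of the 6 genes was represented by exactly 1 transcript cluster (the probes of a gene summarised as 1 value), so that 6 of the 21789 clusters naming a single gene were members. The olfactory mucosa was taken on postnatal day 1 from mice of a mixed 129 x C57BL/6J background, and its total RNA was hybridised with 1 mouse per array. The 4 knockouts were OmpCre:Emx2(fl/fl), in which both copies of the homeodomain gene Emx2 could be deleted by Cre made from the Omp locus. Of the 4 littermate controls, controls 1 to 3 were labelled OmpCre:Emx2(fl/+), with 1 floxed copy and Cre, whereas control 4 was labelled Emx2(fl/fl), without Cre. In this tissue Omp is made in mature olfactory sensory neurons (OSNs), so Cre was placed in mature OSNs and not in basal cells, and by the study's reporter mice it recombined in part of them. The comparison made here is of basal cell marker mRNAs in a mucosa whose neurons, not basal cells, were the target of the deletion.

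Horizontal basal cells normally divide rarely and are recruited when the epithelium is injured, whereas globose basal cells above them supply new OSNs day to day. Krt5 and Krt14 encode a type II and a type I keratin that pair into the intermediate filaments of basal epithelial cells, and p63, the product of Trp63, holds horizontal basal cells in their resting state together with Notch signalling. ICAM-1, the product of Icam1, is a surface receptor for leukocyte integrins that also marks these cells. None of these mRNAs belongs to horizontal basal cells alone. Basal cells of respiratory and squamous epithelium and the myoepithelium of nasal glands also make the keratins and p63, and Icam1 is made by endothelium and immune cells as well. In whole mucosa, fewer cells of a type and less RNA per cell cannot be told apart.

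Before the results, some arrays need to be named. Emx2 mRNA was lower in all 4 knockouts (10.14 to 10.34 on the log2 scale) than in any control (10.58 to 10.89), a difference of -0.55 ± 0.08 (limma adjusted p = 0.201). Omp, the gene into which Cre was inserted, was at 13.432 in control 1 and 13.285 in control 4. In the other mice it was at 12.56 to 12.911. Control 1, a Cre carrier by its label, thus lay with control 4, which lacked Cre by its label. The genotype of control 1 was not tested. Control 2 stood apart on the first principal component (32.9, where the other arrays lay between -11.83 and 6.11). Controls 2 and 3 had high signals for genes of squamous epithelium, and control 2 also for immune cell genes, as described below. High Y-linked signal (list mean 10.53 to 10.72) was present in 3 controls and 1 knockout, knockout 3, and low signal (7.05 to 8.09) in 1 control and 3 knockouts, so that this signal was unevenly spread over the groups (the 3 Y-linked genes measured had a median difference of -1.92, 0 called). All differences are log2 values, knockout minus control. The sign ± is the SE of the difference from limma unless an SD is named, and intervals are 95% confidence intervals.

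No member's difference between knockouts and controls passed the test. Of the 6 genes, 4 (Krt5, Krt14, Krt17 and Icam1) were lower on average in the knockouts and 2 (Krt15 and Trp63) higher, and 48.6% of all clusters were lower. The median difference was -0.18, against 0.0024 over all 21789 clusters. By limma with Benjamini-Hochberg adjustment over all clusters, 0 of 6 members passed at 0.05, where 0.0% of all clusters did. At an unadjusted limma p under 0.05, 0 of 6 were counted, where 5.17% of all clusters were (2.62% higher and 2.55% lower in the knockouts), and the smallest member p was 0.125. The methods' t-test at p under 0.05 counted 4.96% of all clusters. The groups overlapped in each of the 6 genes, whereas they did not overlap in 3.1% of all clusters. Without controls 2 and 3 the median difference was 0.0096.

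**Figure D1:**
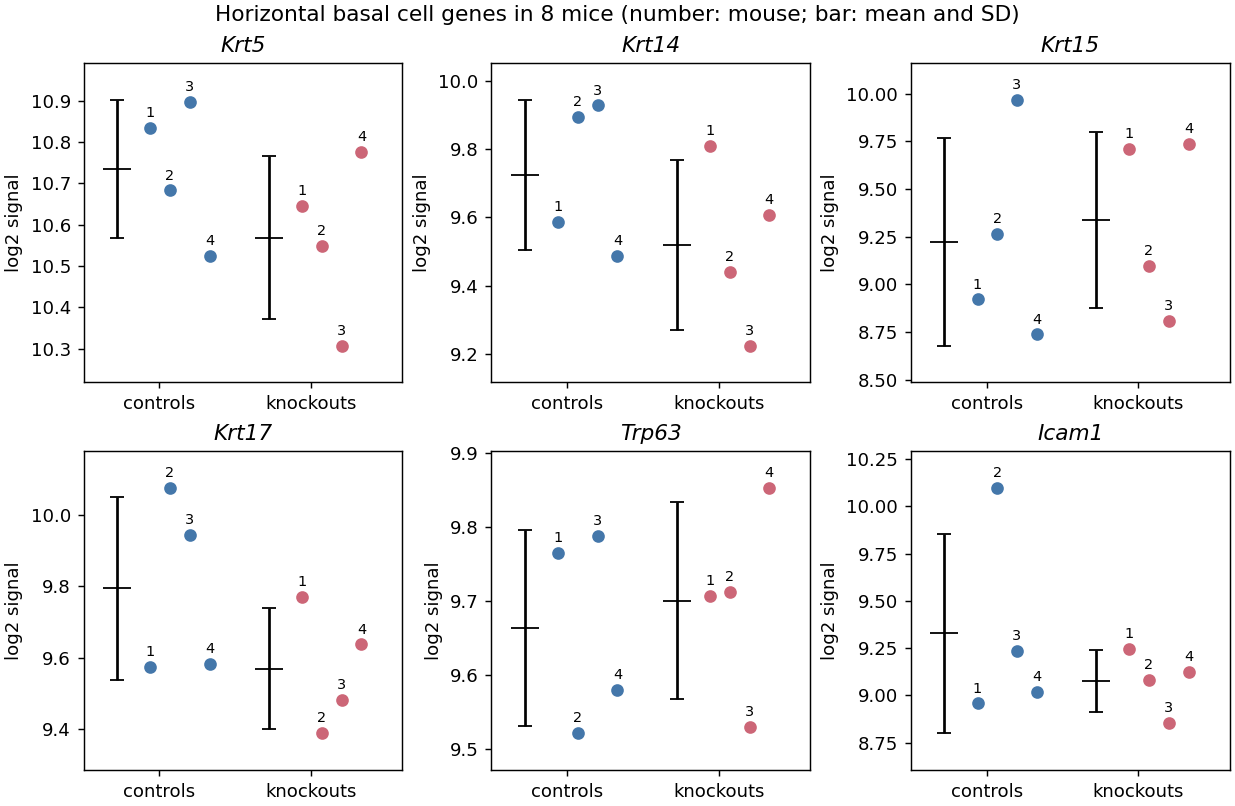
Log2 signal (vertical axes) of the 6 horizontal basal cell genes in 4 controls (blue) and 4 knockouts (red), 1 point per mouse with its number, beside the group mean and SD. In every panel the groups overlap. Control 2 stands alone in Icam1 at 10.10, and knockout 3 is lowest in Krt5, Krt14 and Icam1.

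Krt5, the type II keratin whose antibody is the usual stain for these cells, had log2 signals of 10.83, 10.68, 10.90 and 10.52 in controls 1 to 4 and of 10.65, 10.55, 10.31 and 10.78 in knockouts 1 to 4. Control 3 was highest and knockout 3 lowest, and the other 6 mice were interleaved. The means were 10.74 ± 0.17 (SD, n = 4) and 10.57 ± 0.20 (SD, n = 4), a difference of -0.17 ± 0.11 (fold 0.892, interval 0.745 to 1.07, limma adjusted p = 0.910). Without knockout 3 the difference was -0.0783. Of the members, 3 were found in the RefSeq promoter table of build GRCm38.p6, which holds 250 bases before and 50 after an annotated start, namely Krt5, Krt14 and Icam1. The Krt14 window lies inside the gene as the RefSeq gene table bounds it and does not cover its outermost start, so nothing is drawn from it. The Krt5 window is shown because p63 is a known regulator of Krt5. It lies at chr15:101712856-101713155 on the minus strand, and the capitals mark a match to the p53 family half-site, the sequence that p53, p63 and p73 bind:
Krt5: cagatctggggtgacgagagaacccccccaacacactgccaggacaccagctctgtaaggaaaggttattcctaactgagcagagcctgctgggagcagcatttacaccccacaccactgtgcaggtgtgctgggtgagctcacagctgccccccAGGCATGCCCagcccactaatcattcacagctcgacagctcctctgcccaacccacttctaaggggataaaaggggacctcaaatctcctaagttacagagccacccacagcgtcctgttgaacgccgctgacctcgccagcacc
The match runs from -95 to -86, counting the start base as 0. Searched on both strands, this half-site was present in 8.36% of the 32851 promoter windows. The match describes the letters only, since binding was not measured.

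Trp63 was the member that varied least between mice. Its log2 signals were 9.76, 9.52, 9.79 and 9.58 in controls 1 to 4 and 9.71, 9.71, 9.53 and 9.85 in knockouts 1 to 4. Both groups spanned nearly the same range, with control 2 and knockout 3 lowest. The difference was 0.04 ± 0.09 (fold 1.03, limma adjusted p = 0.964), and its interval, 0.896 to 1.17 as a fold, was the narrowest of the 6. By the study's methods a transcript cluster merges the probe sets of all exons of a gene, so the forms of p63 made from separate start sites were not separated. The sign of the difference turned without control 2 (-0.0104) or knockout 4 (-0.0142), and also when Y-linked signal entered the model as a covariate (-0.0722).

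Krt14, the type I partner of Krt5, had log2 signals of 9.59, 9.89, 9.93 and 9.49 in controls 1 to 4 and of 9.81, 9.44, 9.22 and 9.61 in knockouts 1 to 4. Controls 2 and 3 were above the other 6 mice and knockout 3 was lowest. The difference was -0.20 ± 0.14 (fold 0.868, interval 0.693 to 1.09, limma adjusted p = 0.910). Krt17, a type I keratin of basal and stressed epithelium, had signals of 9.57, 10.08, 9.94 and 9.58 in controls 1 to 4 and of 9.77, 9.39, 9.48 and 9.64 in knockouts 1 to 4. Here too controls 2 and 3 were above all others, and the 4 knockouts lay below the control mean. Its difference of -0.23 ± 0.13 (fold 0.855, interval 0.694 to 1.05, limma adjusted p = 0.910) had the smallest p of the members. Without controls 2 and 3 the differences shrank to -0.0169 for Krt14 and -0.0089 for Krt17, with 2 controls left. Of all clusters, 5.34% likewise had controls 2 and 3 above the other 6 arrays.

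Krt15, a type I keratin of basal stem cells in several stratified epithelia, varied most widely among the keratin members. Its log2 signals were 8.92, 9.26, 9.97 and 8.74 in controls 1 to 4 and 9.71, 9.10, 8.81 and 9.74 in knockouts 1 to 4. Control 3, knockout 1 and knockout 4 were high and the other 5 mice low, in both groups alike. The difference was 0.12 ± 0.30 (fold 1.08, limma adjusted p = 0.970), with an interval from 0.676 to 1.74 as a fold, the widest of the 4 keratins. The SD of Krt15 over the 8 mice was 0.47, larger than in 98.4% of all clusters, against 0.19 for Krt5 (85.9%), 0.24 for Krt14 (91.9%), 0.23 for Krt17 (91.1%) and 0.13 for Trp63 (66.6%). The sign of the Krt15 difference turned with the Y-linked covariate (-0.0292) and without control 4 (-0.0456), knockout 1 (-0.0082) or knockout 4 (-0.0166), and the difference was 0.36 without control 3 and 0.51 without controls 2 and 3.

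Icam1 had log2 signals of 8.96, 10.10, 9.24 and 9.02 in controls 1 to 4 and of 9.24, 9.08, 8.86 and 9.12 in knockouts 1 to 4. Control 2 was far above the rest, and the other 7 mice lay between 8.86 and 9.24 with the groups interleaved. The difference was -0.25 ± 0.23 (fold 0.839, interval 0.581 to 1.21, limma adjusted p = 0.913), and without control 2 it was 0.0047. The Icam1 promoter window is shown because some genes induced through NF-kB, the transcription factor that switches on Icam1 in inflamed tissue, were high in the same mouse. It lies at chr9:21015690-21015989 on the plus strand, and the capitals mark the kappaB motif GGAAATTCC and the TATA box motif TATAAA:
Icam1: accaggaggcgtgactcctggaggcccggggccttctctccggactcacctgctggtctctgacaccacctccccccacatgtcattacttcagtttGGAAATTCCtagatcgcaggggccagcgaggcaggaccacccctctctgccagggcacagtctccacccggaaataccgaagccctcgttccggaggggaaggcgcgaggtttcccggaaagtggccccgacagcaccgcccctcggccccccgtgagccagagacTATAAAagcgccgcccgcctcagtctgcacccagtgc
The kappaB motif runs from -153 to -145 and the TATA motif from 13 to 18, counting the RefSeq start base as 0. Searched on both strands, GGAAATTCC was present in 0.317% and TATAAA in 13.6% of the 32851 windows. GGAAATTCC was searched in this exact spelling only, so its share does not count other kappaB sites. The p53 family half-site above was searched with alternative letters at some positions, so its share is not comparable. Of the 14 listed relatives of Icam1 described below, 9 had a window in the table, and 3 of these (Nfkbia, Tnfaip3 and Cxcl1) held GGAAATTCC. That list was drawn up in part from genes already known to be induced by NF-kB, so this count is no test. The matches describe the letters only, since binding was not measured. What raised Icam1 in control 2 was not tested.

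**Figure D2:**
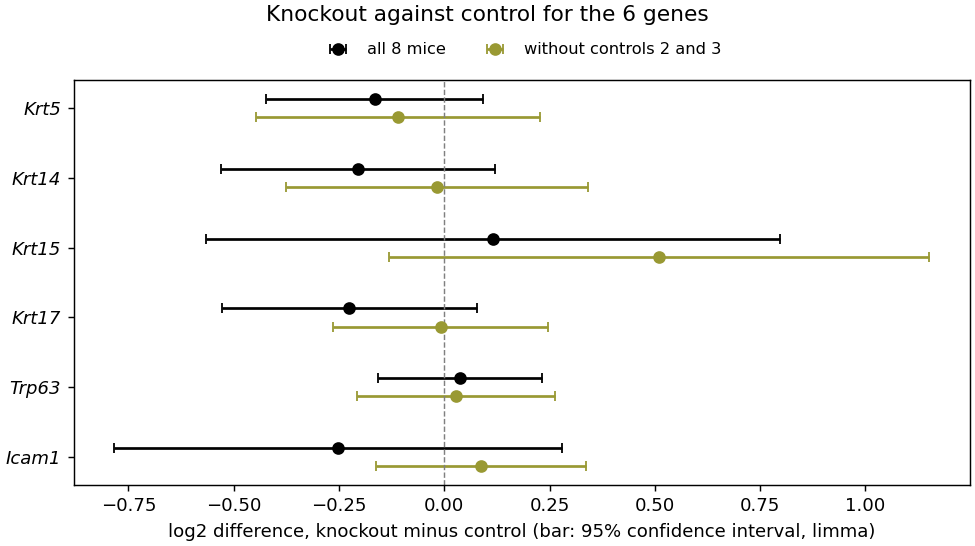
Log2 difference of knockout minus control (horizontal axis) with its 95% confidence interval from limma for each of the 6 genes, over all 8 mice (black) and without controls 2 and 3 (olive, 2 controls and 4 knockouts). All intervals include 0. Krt14 and Krt17 move from -0.20 and -0.23 to -0.0169 and -0.0089, and Icam1 from -0.25 to 0.0872.

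Of the 15 pairs of members, 2 passed for Pearson correlation over the 8 arrays after adjustment over the 15 pairs, and 1 passed for rank correlation. The correlation was positive in 13 pairs and negative for Trp63 with Krt17 and with Icam1. Over the 8 arrays as measured, Krt14 and Krt17 followed each other most closely (r = 0.893, rho = 0.929, two-sided exact permutation p = 0.00265 and 0.00223, adjusted p = 0.0247 and 0.0335). Without control 3 and knockout 3, the mice farthest from the median of Krt14, this relation was r = 0.938 (exact permutation p = 0.00278, adjusted p = 0.0417), and with values centred within each group it was 0.864. Krt14 and Krt17 are related type I keratins whose genes lie near each other and near Krt15 on chromosome 11, and the probe sequences were not used here, so hybridisation of one mRNA to probes of the other was not tested. Krt17 and Icam1 gave r = 0.824 and rho = 0.833 (exact permutation p = 0.0033 and 0.0154, adjusted p = 0.0247 and 0.0769). That relation rested on controls 2 and 3, without which r was 0.624 (exact permutation p = 0.172). Krt5 and Trp63 gave r = 0.719 and rho = 0.667 (exact permutation p = 0.0432 and 0.0831, adjusted p = 0.108 and 0.156), and r = 0.544 without control 3 and knockout 3 (exact permutation p = 0.279). With values centred within each group their r was 0.905, the highest of the 15 pairs, followed by 0.895 for Krt14 and Krt15. The centred values carry no test. Krt5 and Krt14, which pair as proteins, gave r = 0.762 and rho = 0.762 (exact permutation p = 0.0269 and 0.0368, adjusted p = 0.108 and 0.110), a relation that rested on control 3 and knockout 3 (r = 0.309 without them, exact permutation p = 0.542). For Trp63 and Krt17 the values were near 0 (r = -0.089, rho = -0.048, exact permutation p = 0.822 and 0.935).

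Set to 0 at each gene's own mean, the 6 members averaged -0.08, 0.24, 0.27 and -0.20 in controls 1 to 4 and 0.13, -0.14, -0.32 and 0.10 in knockouts 1 to 4. All 6 were above their own mean in control 3, and all 6 were below it in control 4 and in knockout 3. In control 2, 4 were above it, with Icam1 farthest at 0.898 and Trp63 below it at -0.16. The groups therefore overlapped, with high and low mice in each. Of all named clusters, the one most like this average over the 8 arrays was Hbegf (r = 0.997, with no test because it is the highest of many), which encodes a membrane-bound ligand of the EGF receptor. Its log2 signals were 9.10, 9.24, 9.24 and 9.05 in controls 1 to 4 and 9.17, 9.08, 8.998 and 9.17 in knockouts 1 to 4, a narrow range. Next came Il1bos (0.979), Ppp1r27 (0.973), Chrm1 (0.970), Itpr3 (0.969), Fbxo6 (0.967), the hemidesmosome integrin gene Itgb4 (0.965), Serpinb1b (0.963), Plvap (0.962) and Gzmg (0.960). For Krt5 alone the closest were 2900005J15Rik (0.932), Gpr37l1 (0.922), Osgin1 (0.914), Mir451a (0.903) and Klhl30 (0.903). For Icam1 they were Chst5 (0.993), Fes (0.992), Tmem176b (0.990), Ms4a6c (0.990) and Kcnk5 (0.989), all highest in control 2, and with control 2 left out their r with Icam1 was 0.912 to 0.939.

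**Figure D3:**
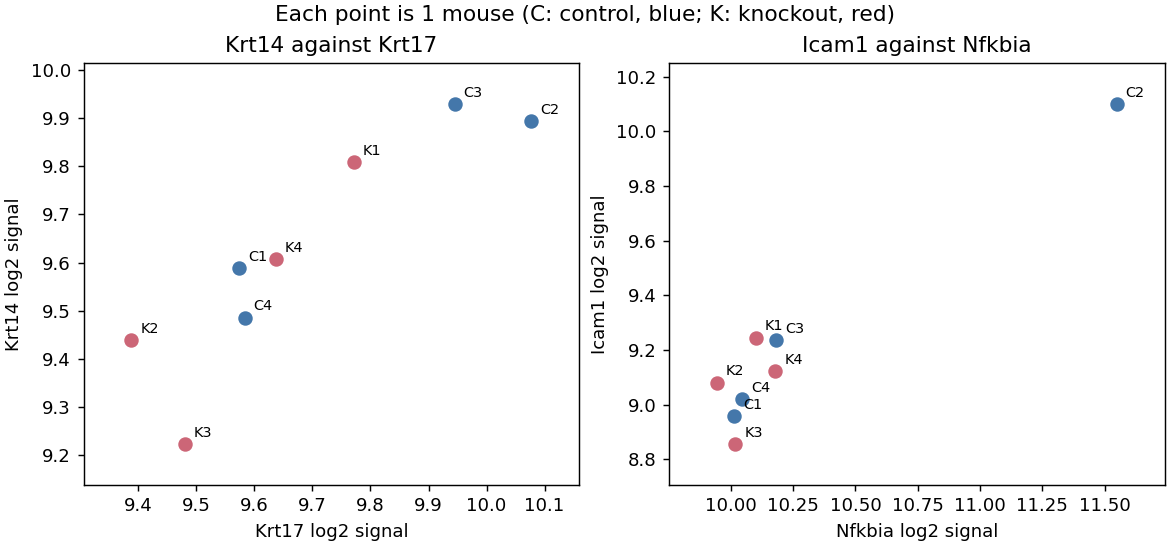
Log2 signal of Krt14 against Krt17 (left) and of Icam1 against Nfkbia (right), 1 point per mouse (C, controls, blue; K, knockouts, red; the number is the mouse). Krt14 and Krt17 lie along one line with controls 2 and 3 at its upper end, and control 2 stands alone at upper right in the plot of Icam1 against Nfkbia.

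No gene of the structures that anchor basal cells passed the test. Hemidesmosomes fix basal cells to laminin in the basement membrane, and of 9 measured genes 5 had a higher and 4 a lower mean in the knockouts, with a median difference of 0.0009 and 0 past the adjusted threshold. After quantile normalization 4 were higher and 5 lower. Integrin genes Itga6 and Itga3 were at 0.04 ± 0.09 and -0.17 ± 0.09, and the laminin gene Lamb3 at -0.13 ± 0.07 (limma adjusted p = 0.964, 0.910 and 0.910). In 4 of these 9 genes controls 2 and 3 were above the other 6 mice, and in 5 knockout 3 was lowest, the same mice that were high and low in Krt14. Desmosomes join epithelial cells to each other, and 2 of 9 genes were higher and 7 lower (median -0.05, 0 called, and 1 and 8 after quantile normalization). With the arrays scaled to mature OSN genes 7 were higher and 2 lower. That scaling shifted all clusters alike, their median moving from 0.0024 to 0.1149, and counts under it here and below include this shift. The position of each list relative to that median did not change. The share of all clusters higher under it was not counted. Jup, which encodes plakoglobin, was at -0.09 ± 0.05, the desmocollin gene Dsc2 at -0.13 ± 0.08 and the plakophilin gene Pkp3 at -0.12 ± 0.06 (limma adjusted p = 0.910 each).

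Genes that act with p63 were 1 higher and 6 lower of 7 measured (median -0.07, 0 called), and 4 higher and 3 lower with scaling to mature OSN genes. Ripk4, a kinase gene needed for epidermal differentiation, was at -0.13 ± 0.05 (limma adjusted p = 0.910), the Notch ligand gene Jag2 at -0.07 ± 0.06 and Sfn, which encodes the 14-3-3 sigma protein of stratified epithelium, at -0.27 ± 0.15. Sfn was at 9.82 and 9.79 in controls 2 and 3 and at 9.10 to 9.41 in the other 6 mice. Notch receptors, ligands and targets and the surface receptors of basal cells were 8 higher and 4 lower of 12 (median 0.02, 0 called), and all 12 were higher with scaling to mature OSN genes. Notch1, the receptor, was at 0.10 ± 0.06, its ligand gene Jag1 at 0.13 ± 0.05 (limma adjusted p = 0.910) and the target gene Hey1 at 0.02 ± 0.05. Globose basal cell and division genes were higher in all 9 measured members under each scaling (median 0.12, 0 called), with the receptor gene Kit at 0.17 ± 0.07, the neurogenic factor gene Neurod1 at 0.29 ± 0.15 and Ezh2 at 0.12 ± 0.07 (limma adjusted p = 0.910 each), and control 2 was lowest on this list (-0.29 from its mean).

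Squamous epithelium, which lines the nasal vestibule and the skin, lays Krt5 and Krt14 cells under differentiating cells, and genes of the latter were high in the same mice as Krt14 and Krt17. In controls 2 and 3, 11 of 14 measured squamous genes were above all 6 other mice, where 5.34% of all clusters were, against 2 of the 6 members. Krt10, the keratin of differentiating epidermis, was at 8.27, 10.10, 10.79 and 8.51 in controls 1 to 4 and at 8.37, 8.62, 8.55 and 8.30 in knockouts 1 to 4. Its difference was -0.96 ± 0.52 (limma adjusted p = 0.910). Sprr1a, a cornified envelope gene, was at 9.90, 12.16, 12.02 and 9.98 in controls and at 10.20, 9.64, 9.99 and 9.65 in knockouts (-1.15 ± 0.53, limma adjusted p = 0.910). The mean of the list, set to 0 over the 8 mice, was 0.66 and 1.06 in controls 2 and 3 and -0.46 to -0.06 elsewhere. Over the whole list 1 gene was higher and 13 lower in the knockouts (median -0.43, 0 called, limma p under 0.05 for 2 lower genes, Sbsn and Sprr1b), with 0 and 14 after quantile normalization and 4 and 10 after scaling to mature OSN genes. The squamous list mean was also entered as a covariate, an alternative chosen after seeing the data. The member differences were then -0.0417 for Krt14, -0.0515 for Krt17, -0.1217 for Krt5, 0.48 for Krt15, 0.0352 for Trp63 and -0.031 for Icam1. Knockout 1 was the highest of the knockouts on the squamous list (-0.06, against -0.38 to -0.29 in the others), although below controls 2 and 3. It was also above the other knockouts in Krt14, Krt17 and Icam1. Knockout 4, the lowest of the knockouts on the squamous list (-0.38), was above the other knockouts in Krt5, Krt15 and Trp63.

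Of 48 other keratin genes, 8 were higher and 40 lower in the knockouts (median -0.05), 0 passed, and 0 had a limma p under 0.05. After quantile normalization 6 were higher and 42 lower. With scaling to mature OSN genes 41 were higher and 7 lower, but relative to the median of all clusters their median was -0.0538 with and without that scaling. Krt8 and Krt18, the keratin pair of simple and sustentacular cells, were at -0.09 ± 0.07 and -0.06 ± 0.06, and Krt19 at -0.11 ± 0.21. The smallest p values were those of Krt26 (0.10 ± 0.05), Krt77 (-0.18 ± 0.08) and Krt10. Krt26 was dim, with a mean signal of 6.55 that was above only 9.25% of all clusters. Controls 2 and 3 were above all other mice in 7 of the 48.

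**Figure D4:**
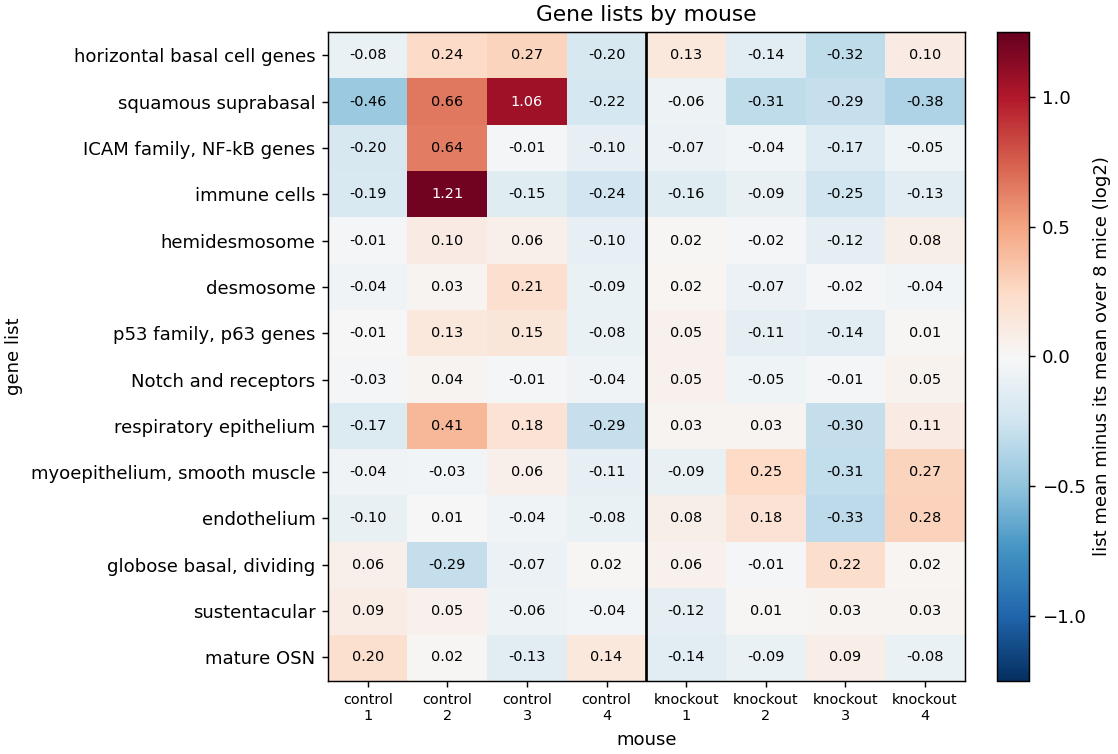
Mean log2 signal of each gene list (rows) in each mouse (columns, controls left of the line), minus the mean of that list over the 8 mice; red is above and blue below. Controls 2 and 3 are high in squamous genes (0.66 and 1.06), and control 2 in immune genes (1.21). In horizontal basal cell genes controls 2 and 3 average 0.24 and 0.27. Within that average for control 2, Icam1 is at 0.898, Krt5 at 0.031, Krt15 at -0.016 and Trp63 at -0.16.

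Leukocyte integrin genes and some NF-kB-induced genes were high in the mouse that was high in Icam1, whereas the other ICAM genes measured (Icam2, Icam4 and Icam5) and the selectin gene Sele were not highest there. Of 13 genes measured on this list, 9 were highest in control 2, where 13.3% of all clusters were. Among these 9, Ccl2 (8.08, against 8.05 in knockout 4) and Vcam1 (8.53, against 8.51 in knockout 2) were highest by little. Of the 13, 4 were higher and 9 lower in the knockouts (median -0.20, 0 called; 6 and 7 with scaling to mature OSN genes). Nfkbia, the inhibitor gene that NF-kB itself induces, was at 10.01, 11.55, 10.18 and 10.05 in controls 1 to 4 and at 9.94 to 10.18 in the knockouts. Tnfaip3, another feedback inhibitor, was at 10.15 in control 2 and at 8.17 to 8.42 in the other 7 mice. Itgal, which encodes the alpha chain of the leukocyte integrin that binds ICAM-1, was at 9.39 in control 2 and 8.54 to 8.88 elsewhere (-0.24 ± 0.16), and the chemokine gene Cxcl1 was at -0.20 ± 0.11 (limma adjusted p = 0.910 each). All 11 immune cell genes were highest in control 2 as well, among them Cd14 (10.44, against 7.93 to 8.26 elsewhere) and Tyrobp (10.96, against 9.69 to 9.93), and the list mean stood at 1.21 from its average there and at -0.25 to -0.09 in the other mice. Of the 11, 2 had a higher and 9 a lower mean in the knockouts under each scaling (median -0.35, 0 called). With this list mean as a covariate, also chosen after seeing the data, the Icam1 difference was -0.0173. Krt5 was then at -0.1716, Krt14 at -0.1448, Krt15 at 0.149, Krt17 at -0.1386 and Trp63 at 0.0011. Control 2 was high on both the squamous and the immune list. Endothelial genes, another source of Icam1, did not stand out in control 2 (0.01), were higher in the knockouts in all 8 members under each scaling (median 0.11, 0 called), and were lowest in knockout 3 in all 8, where 10.6% of all clusters were.

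Markers of the other cells that share the keratins, and of sustentacular cells and mature OSNs, gave no called difference. Myoepithelial and smooth muscle genes were 5 higher and 1 lower of 6 (median 0.06), with Acta2 at 0.05 ± 0.15 and Mylk at 0.13 ± 0.11, and 6 higher with scaling to mature OSN genes. They were low in knockout 3 (-0.31) and high in knockouts 2 and 4 (0.25 and 0.27). Respiratory epithelium genes were 4 higher and 6 lower of 10 (median -0.01; 3 and 7 after quantile normalization, 7 and 3 with scaling to mature OSN genes), with the ciliogenesis factor gene Foxj1 at -0.12 ± 0.08, and were highest in control 2 (0.41) and low in control 4 (-0.29) and knockout 3 (-0.30), mice that were also high and low in the members' average. Scgb1a1, a respiratory secretory gene, was at 0.11 ± 0.05 (limma adjusted p = 0.910). Its mean signal of 4.95 was very dim, above only 1.64% of all clusters. Sustentacular cell genes were 3 higher and 6 lower of 9 (median -0.02; all 9 higher with scaling to mature OSN genes), with Cyp2g1 at 0.0042 ± 0.05. Among 19 mature OSN genes 4 were higher and 15 lower (median -0.04, with 11 and 8 after scaling to their own mean). Of these, S100a5 (-0.58 ± 0.12, limma adjusted p = 0.459) and Cidea (-0.43 ± 0.11, limma adjusted p = 0.660) had the smallest p. Of the 19, 4 were lower at an unadjusted limma p under 0.05, where 2.55% of all clusters were. The groups did not overlap in 2, S100a5 and Cidea, where they did not overlap in 3.1% of all clusters. The part of each of these cells in the member values was not tested.

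Within the mice of high Y-linked signal, where knockout 3 was compared with controls 2 to 4, all 6 members were lower in the knockout: -0.39 for Krt5, -0.55 for Krt14, -0.51 for Krt15, -0.39 for Krt17, -0.10 for Trp63 and -0.60 for Icam1. Within those of low signal, where 3 knockouts were compared with control 1, the differences were -0.18 for Krt5, 0.03 for Krt14, 0.59 for Krt15, 0.03 for Krt17, -0.0076 for Trp63 and 0.19 for Icam1. In each set 1 group had 1 mouse, so these values carry no test.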

How the data were processed

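RNA abundance was measured in the olfactory mucosa of 8 mice on Affymetrix GeneChip Mouse Gene ST arrays. The values deposited by the authors are log2 signals per transcript cluster. Per the labels they were made with Affymetrix Expression Console. The sources used here give neither its version nor the algorithm. Values ran from 2.65 to 14.9 and array medians differed by at most 0.0391, so nothing was transformed or normalized again. Arrays give no counts, and their number limits the precision.

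Names came from the platform annotation, updated by Entrez identifier through the RefSeq table of GRCm38.p6: 21789 of 35557 clusters named 1 gene, 1621 several and 12147 none. In lists, the cluster of highest mean stood for a gene that had more than 1. The 4 knockouts were set against the 4 controls with limma (version 3.58.1, R 4.3.3), two-sided, with Benjamini-Hochberg adjustment over the 21789 clusters at 0.05. limma was tested on simulated data with known changes. Genes were named by a rule: the members, and for each list those called, the 2 of smallest p and the one of highest mean signal; for other keratins the 3 of smallest p and the 3 of highest mean; and the clusters most correlated with Krt5, Icam1 and the members' average. Tnfaip3, Icam2, Icam4, Icam5, Sele, Ccl2 and Vcam1 fall outside it and were chosen after their values were seen. Replicate numbers only name mice. Litters are not in the labels. The members and lists were chosen with earlier results of these data known.

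Alternatives were the methods' t-test, quantile normalization, scaling to a list of mature OSN genes, a filter on dim clusters, all clusters, array weights, the Y-linked signal as a covariate, leaving out each mouse and, chosen after seeing the data, leaving out controls 2 and 3 and the squamous or immune list mean as a covariate. The study also normalised to mature OSN mRNAs, but with a far longer list than the 19 genes measured here. These 19 include Omp, which carries the Cre insertion, so the scaling here is not the study's own. The study reported that mature OSN numbers were unaffected by conditional Emx2 deletion.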

Additional observations from a re-analysis of the deposited data

Results flagged for a closer look

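Values in which the highest or lowest of 4 mice of a group stood apart from the other mice were looked for in the named genes and list means. Of 138 groups of 4, 15 were marked, where chance marks about 5% of groups, and none was a member of the horizontal basal cell set. The number after each gene is the gap to the nearest mouse as a share of the group's range. Control 2 was high in Cd14 (0.879), Nfkbia (0.890), Tyrobp (0.892) and the mean of the immune list (0.939). Control 1 was low in the Y-linked genes Eif2s3y (0.948) and Uty (0.977) and in the mean of their list (0.963), and knockout 3 was high in the same genes (0.899 and 0.858) and list (0.874). The Y-linked mean of control 1 was 8.09, and that of the other 3 mice of low signal was 7.05 to 7.51. Knockout 1 was low in the sustentacular gene Cbr2 (0.888) and in the mean of the sustentacular list (0.875), knockout 2 was high in Cyp2g1 (0.839) and low in Tyrobp (0.980), and knockout 4 was high in Lamb3 (0.867).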

How the results depend on the processing

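Under 18 alternatives no member passed the adjusted threshold, and the smallest adjusted p of any member was 0.630 (Krt17 without control 1). The directions of Krt5, Krt14 and Krt17 held in all 18. The methods' t-test, the filter on dim clusters and the use of all clusters keep each difference as in the main fit. No sign could turn under them. Of 108 member values under alternatives, 9 had the opposite sign. With the Y-linked covariate these were Krt15 (-0.0292) and Trp63 (-0.0722), and without controls 2 and 3 together Icam1 (0.0872), as was the median of the members (0.0096). With single mice left out, Krt5 ranged from -0.2358 to -0.0783, Krt14 from -0.3006 to -0.1055, Krt15 from -0.0456 to 0.3646, Krt17 from -0.2992 to -0.1311, Trp63 from -0.0142 to 0.0939 and Icam1 from -0.3763 to 0.0047. Krt15 was negative without control 4 (-0.0456), knockout 1 (-0.0082) or knockout 4 (-0.0166), Trp63 without control 2 (-0.0104) or knockout 4 (-0.0142), and Icam1 was positive without control 2 (0.0047). The cause was not tested.

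Over all clusters the adjusted count was 0 by limma and by the methods' t-test (which counted 1081 at p under 0.05, against 1126 by limma), 5 with scaling to mature OSN genes, 5 with array weights, 2 among the 10894 clusters above the median signal, 3 without controls 2 and 3, 2 with the squamous covariate, and 0 to 1 with single mice left out. At an unadjusted limma p under 0.01 the count was 264. It was 163 among clusters above the median signal, where fewer were tested. With the Y-linked covariate it was 150, without control 4 168, without knockout 1 194, without knockout 2 202 and without knockout 4 135. It rose to 387 without knockout 3, 368 with the squamous covariate, 354 with array weights and 352 without controls 2 and 3. Without control 1 it was 333, without control 3 331, and over all clusters, where more were tested, 330. Scaling to mature OSN genes moved the median of all clusters from 0.0024 to 0.1149. Relative to that median the members stood at -0.1873 before and after. Of the pairs of members, 2 passed over all mice and 1 without the 2 mice farthest from the median, where Krt17 and Icam1 no longer passed (r = 0.624) and the sign turned for Krt14 and Trp63 (-0.339), Krt17 and Trp63 (0.298) and Trp63 and Icam1 (0.268).

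No paired analysis was possible because the labels give no replicate number, litter or pairing shared by a knockout and a control. All 6 members lay above the median signal of the clusters, so none was lost to the filter on dim clusters, and each had 1 cluster, so averaging a gene's clusters changed nothing. No gene of the other lists passed under any alternative. With 4 mice in each group, the intervals leave room for a fall of Krt5 to 0.745-fold and of Icam1 to 0.581-fold.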
